A study of Homo sapiens with 6 samples.

Results

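The genes described here encode 10 cytokine receptor chains: IFNAR1 and IFNAR2, IFNGR1 and IFNGR2, IL10RB, IL6ST (gp130), OSMR, LIFR, IL4R and PRLR. They were taken by name from the 61487 gene IDs of a count table, and all 10 names matched a single ID each. The table came from RNA sequencing of H2170, an established human lung squamous cell carcinoma line. The cells expressed GFP (Control), ACK1 (WT)-GFP (WT) or ACK1 (IDRmut)-GFP (IDRmut), in 2 libraries each. ACK1, the product of TNK2, is a tyrosine kinase of the cytoplasm, and the study asked how its condensates act on genes and on STAT5. IDR usually stands for an intrinsically disordered region; the sources used here do not name the altered residues, the promoter of the transgene or the time after its introduction. All 3 groups share the parental line and a GFP sequence, and the line was grown in DMEM with serum; no cytokine is named in the labels.

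Cytokine receptors of these families have no kinase of their own. A ligand brings chains together, JAK kinases bound to the chains phosphorylate them, and STAT proteins are recruited and move to the nucleus. Type I interferons use IFNAR1 with IFNAR2, interferon-gamma uses IFNGR1 with IFNGR2, and IL10RB is the shared second chain for IL-10, IL-22 and the interferon-lambda family. The signal transducer gp130, encoded by IL6ST, pairs with OSMR for oncostatin M and with LIFR for leukaemia inhibitory factor (LIF). IL4R binds IL-4 and in non-blood cells pairs with IL13RA1. The prolactin receptor PRLR pairs with itself and is a classical activator of STAT5.

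Library totals ran from 19128111 to 33540998 counts, the second WT library being the deepest. TNK2, which checks the labels, was at 41.1 and 43.1 CPM (counts scaled to library size with TMM) in Control, 3514 and 3613 CPM in WT, and 1762 and 1455 CPM in IDRmut. Reads of the transgene and of the endogenous gene were not separable. WT and IDRmut therefore differed in ACK1 mRNA as well as in the mutation, and in every comparison of WT with IDRmut the effects of these cannot be told apart. All 7 squamous markers were expressed, with a summed level of 2594 to 2628 CPM for Control, 1272 to 1312 CPM for WT and 1730 to 1859 CPM for IDRmut. Single markers went both ways against Control at adjusted p under 0.05: 2 rose and 4 fell in WT, and 4 rose and 3 fell in IDRmut. The epithelial markers EPCAM and CDH1 had at most 4 and 3 counts in any library. Of 6 T and B cell markers, 5 had no count anywhere, and the summed myeloid markers reached at most 1.26 CPM. Summed epithelial markers, mostly keratins, ran from 14.95 to 15.98 CPM for Control, 39.49 to 40.31 CPM for WT and 76.76 to 85.57 CPM for IDRmut. Summed fibroblast markers ran from 877.3 to 898.6, 696.5 to 707.2 and 909.9 to 969.3 CPM in the same order, with at most 5 counts of DCN and LUM, and endothelial markers from 219.2 to 225.5, 51.04 to 52.97 and 99.05 to 102.2 CPM, with at most 7 counts of PECAM1. Of 4 tested endothelial markers, 1 rose and 1 fell in WT, and 1 rose and 2 fell in IDRmut against Control. CDH5 was at -2.43 and -1.21 on the log2 scale in WT and IDRmut, and TEK at 2.27 and 1.30. In WT 2 epithelial markers rose and 1 fell, and 1 fibroblast marker rose and 2 fell. The sums therefore do not show how single markers moved. The part of these markers in the receptor differences was not tested. Whether replicates were separate cultures is not stated, and the p-values reflect the spread between these libraries alone, which may be technical. In bulk RNA, fewer cells with a transcript and less transcript per cell cannot be told apart.

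Of the 10 receptors, 4 were called in WT against Control, where 35.0% of all 16591 genes tested were called (edgeR's quasi-likelihood test, Benjamini-Hochberg adjusted p under 0.05 over all genes). IL4R, LIFR and IFNGR1 rose and OSMR fell. Changes are given as log2 fold changes ± SE throughout. In IDRmut against Control 5 receptors were called, against 31.6% of all genes: IL4R, IFNGR1, OSMR and PRLR rose and IFNGR2 fell. In WT against IDRmut 5 were called, against 26.5% of all genes: IL4R, LIFR and IFNGR2 were higher in WT, and OSMR and PRLR were lower. The median log2 fold change over the receptors was 0.03, 0.18 and 0.01 in these comparisons, beside 0.00172, 0.00396 and 0.000678 over all genes tested. The shares called lay near or above those of all genes, and the changes were mostly small: IL4R alone moved by more than 1 on the log2 scale among the called receptors. IL4R and OSMR were called in all 3 comparisons, and IFNAR1, IFNAR2, IL6ST and IL10RB in none. All 10 receptors passed the filter on low counts, but IL4R did so only through WT and IDRmut. IL10RB likewise met it in both libraries of WT and of IDRmut but not of Control. IFNAR2 met it in both libraries of Control and of WT but not of IDRmut. The comparisons with Control share its libraries, so they are not independent of each other.

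**Figure D1:**
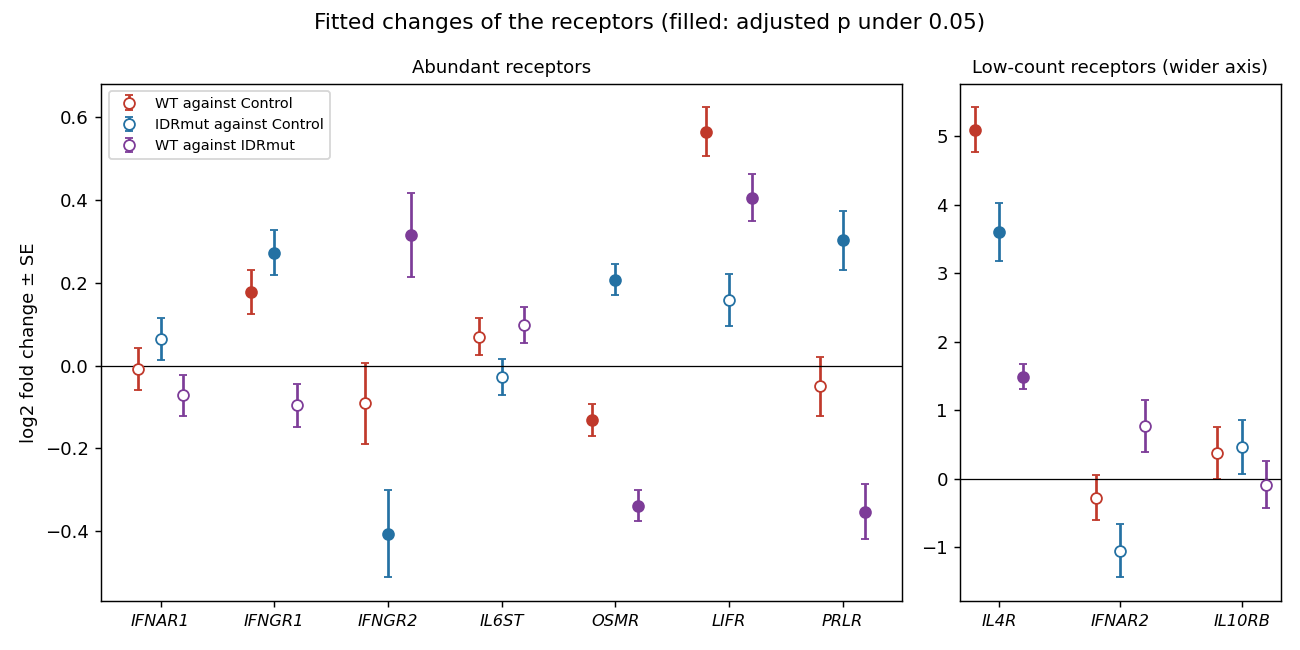
Log2 fold change ± SE of each receptor in WT against Control, IDRmut against Control and WT against IDRmut, with the low-count receptors IL4R, IFNAR2 and IL10RB on a wider axis. IL4R stands at 5.10, 3.61 and 1.49, while among the abundant receptors the largest value is 0.57, for LIFR in WT.

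The promoters of IL4R and LIFR are printed because these genes showed the largest rises in WT. Sequences are from RefSeq on GRCh38.p14 and cover the 250 bases before an annotated start, 5′ to 3′ on the gene's strand. Of the 10 receptors, 9 had at least 1 promoter in that table, 14 in all; IFNAR2 had none listed. Capitals mark the letters TTCNNNGAA, the core of the GAS element that STAT dimers bind, which reads the same on both strands.
IL4R, chr16:27313724-27313973, plus strand: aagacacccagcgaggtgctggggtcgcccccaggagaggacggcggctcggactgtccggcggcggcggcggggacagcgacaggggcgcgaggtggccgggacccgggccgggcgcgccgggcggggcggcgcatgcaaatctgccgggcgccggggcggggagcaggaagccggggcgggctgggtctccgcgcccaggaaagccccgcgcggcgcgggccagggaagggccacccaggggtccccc
LIFR start 1, chr5:38595406-38595655, minus strand: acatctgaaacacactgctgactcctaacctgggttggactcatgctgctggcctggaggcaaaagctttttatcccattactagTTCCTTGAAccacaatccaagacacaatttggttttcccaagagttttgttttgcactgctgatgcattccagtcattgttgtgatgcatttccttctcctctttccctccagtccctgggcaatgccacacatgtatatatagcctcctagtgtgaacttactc
LIFR start 2, chr5:38557468-38557717, minus strand: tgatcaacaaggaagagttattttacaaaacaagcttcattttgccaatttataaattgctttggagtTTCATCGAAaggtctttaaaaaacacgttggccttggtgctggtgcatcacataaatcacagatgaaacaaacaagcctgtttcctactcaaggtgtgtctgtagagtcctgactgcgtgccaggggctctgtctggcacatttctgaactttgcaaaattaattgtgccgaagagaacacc
LIFR start 3, chr5:38556647-38556896, minus strand: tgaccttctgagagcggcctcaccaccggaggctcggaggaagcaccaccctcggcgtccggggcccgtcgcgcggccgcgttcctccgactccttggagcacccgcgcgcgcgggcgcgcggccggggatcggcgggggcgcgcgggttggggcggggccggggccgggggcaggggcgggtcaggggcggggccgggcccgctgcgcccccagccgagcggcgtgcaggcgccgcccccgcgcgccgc
The match in LIFR start 1 was TTCCTTGAA, beginning at -165 from the start, and that in LIFR start 2 was TTCATCGAA, beginning at -182. These 2 were the only matches in the upstream windows of the receptors, and 6.57% of all 35116 promoters hold the letters in the same window. IL10RB had 1 match just after its start, TTCCCGGAA. The STAT6-type spacing TTCNNNNGAA and the interferon-response letters GAAANNGAAA were searched on both strands in the same promoters; no receptor promoter held either, while 6.44% and 3.57% of all promoters did so in 300 bases. The IL4R window is CpG-rich, with 35 CpG and 80.8% G or C, beside medians of 11 CpG and 58% over all promoters. The LIFR starts differed in this respect, with 0, 4 and 44 CpG. Counts per gene do not show which start was used.

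The order of the receptors by level was set per kilobase of merged exon, because raw counts grow with transcript length. In Control, OSMR was the most abundant at 22.8 ± 0.103 CPM per kb (SD, n = 2), followed by IL6ST at 19.6 ± 1.24, IFNGR1 at 12.6 ± 0.288 and IFNAR1 at 11.1 ± 0.225. IFNGR2 followed at 5.71 ± 0.847 CPM per kb, LIFR at 2.82 ± 0.210 and PRLR at 1.78 ± 0.0871. The 3 chains at the bottom, IFNAR2, IL10RB and IL4R, were at 0.192, 0.109 and 0.0223 CPM per kb. Other genes overlap 83.25% of the IFNAR2 exon bases and 38.08% of those of IL10RB. If reads of shared bases were left out, the levels and ranks of these genes are understated in every group. In Control no neighbours in this order overlapped between libraries. The order of the first 7 receptors was the same in all 3 groups. In WT the libraries of OSMR, at 20.8 CPM per kb, overlapped those of IL6ST, at 20.6. IL4R moved from rank 10 in Control to rank 8 in both other groups. IFNAR2 and IL10RB overlapped in WT, and IL10RB stood above IFNAR2 in IDRmut.

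**Figure D2:**
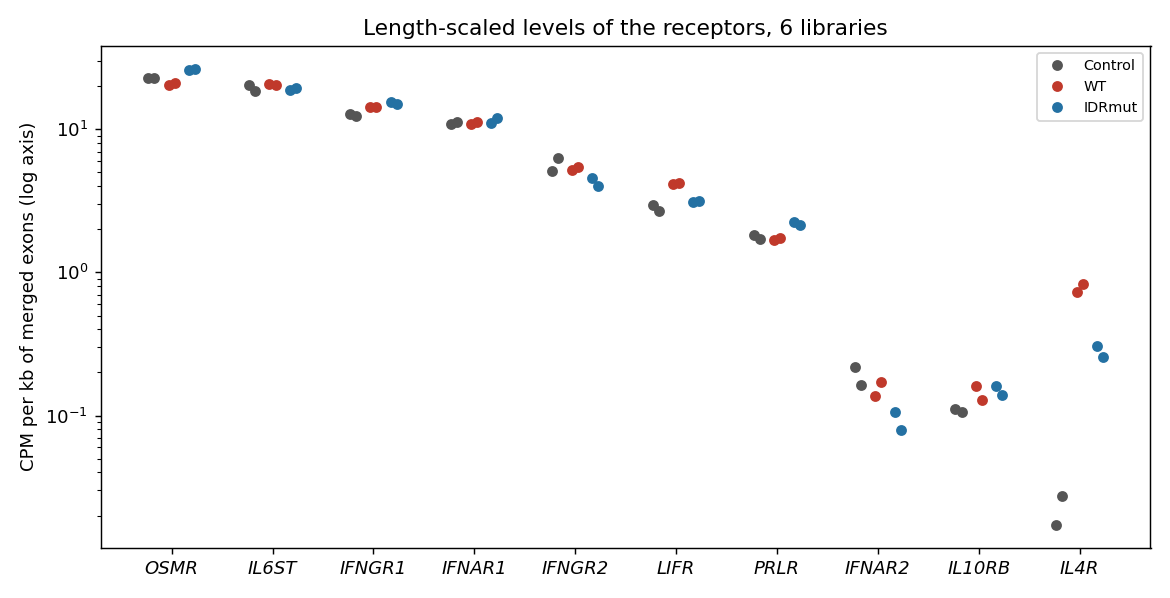
Level of each receptor in CPM per kb of merged exons on a log axis, by group, with a point for each library. OSMR and IL6ST lead in every group, and IL4R is the receptor whose groups lie farthest apart.

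IL4R was nearly silent in Control and was detected in every WT and IDRmut library. It lies on chromosome 16 from 27313668 to 27364778 (GRCh38, GENCODE 29, plus strand; ENSG00000077238). Control had 2 and 3 counts, WT had 88 and 168, and IDRmut had 37 and 33. In CPM these were 0.101 and 0.161 for Control, 4.31 and 4.91 for WT, and 1.82 and 1.5 for IDRmut. The groups did not overlap: every IDRmut library lay above both Control libraries, and every WT library above both IDRmut libraries. The log2 fold change was 5.10 ± 0.33 (SE) in WT against Control (adjusted p = 2.0e-09), 3.61 ± 0.43 in IDRmut against Control (adjusted p = 5.2e-06) and 1.49 ± 0.18 in WT against IDRmut (adjusted p = 1.1e-05). Because Control held 5 counts in all, the ratio of summed counts per depth is given with its exact 95% interval, which covers counting error only: 35.9 (15.2 to 112) for WT and 12.7 (5.18 to 40.2) for IDRmut. The ratio of WT to IDRmut was 2.84 (2.17 to 3.75). An antisense transcript that overlaps 5.75% of the IL4R exon bases had no count in any library. The leukocyte marker PTPRC, the gene of CD45, had 0 and 0 counts for Control, 5 and 2 for WT, and 4 and 2 for IDRmut.

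IL13RA1 was abundant in every library and was not called. This gene, which completes the IL-4 and IL-13 receptor of non-blood cells, was at 82.7 and 87.9 CPM for Control, 88.9 and 88.7 CPM for WT, and 87.7 and 90.6 CPM for IDRmut. Its log2 fold change was 0.06 ± 0.05 in WT (adjusted p = 0.36) and 0.06 ± 0.05 in IDRmut (adjusted p = 0.33). Per kb, IL4R mRNA was 0.00091 and 0.00136 of that of IL13RA1 for Control, 0.0360 and 0.0411 for WT, and 0.0154 and 0.0123 for IDRmut. IL4R thus stayed the scarcer chain of the pair in every library. IL2RG, the partner of IL4R on lymphocytes, had at most 3 counts in any library. IL13RA2, which binds IL-13 without a signalling tail, rose by 0.60 ± 0.07 in WT (adjusted p = 4.1e-06) and by 0.28 ± 0.08 in IDRmut (adjusted p = 0.0097). STAT6, the transcription factor of this receptor, had between 1 and 6 counts per library and was not tested. IL4 had at most 3 counts and IL13 at most 2 in any library.

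**Figure D3:**
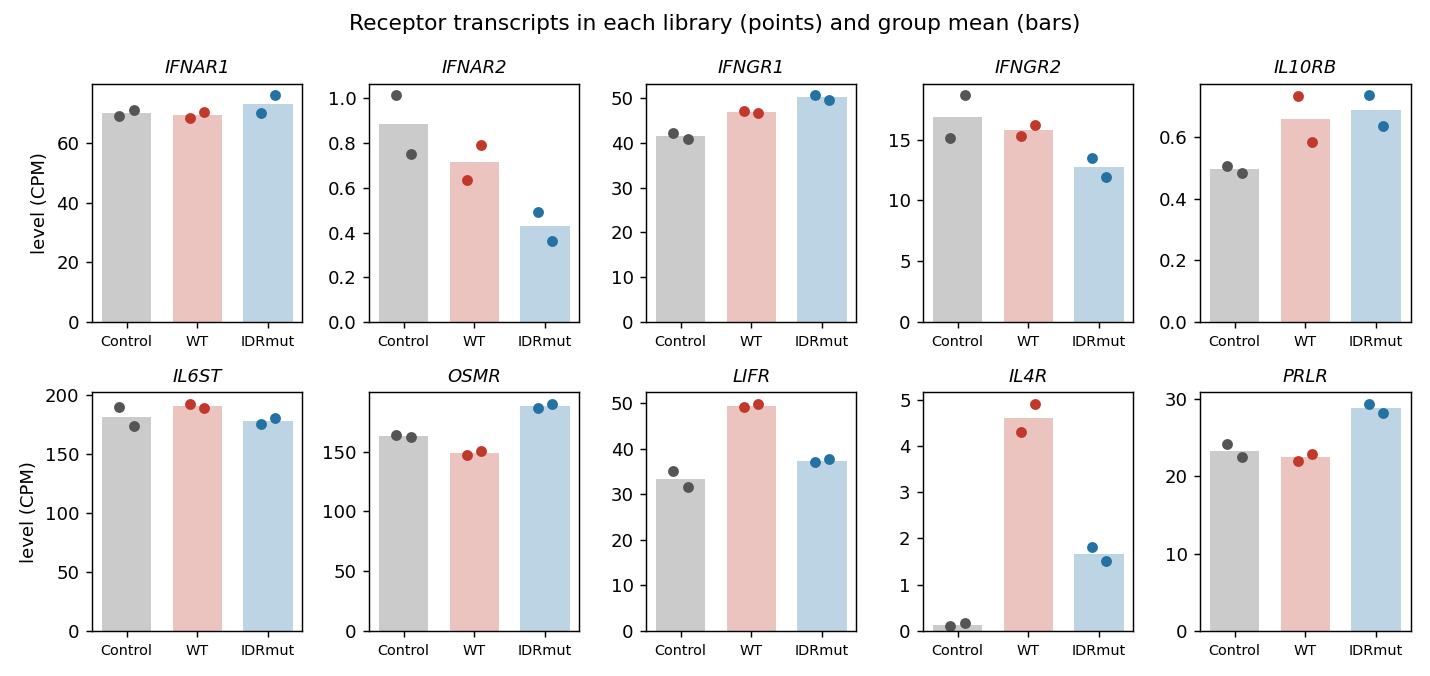
CPM of each of the 10 receptors in the 6 libraries, with a point per library, a bar for the mean of each group and an axis of its own for each gene. IL4R and LIFR are highest in WT, OSMR and PRLR are highest in IDRmut, and IFNAR1 and IL6ST overlap between Control and the other groups.

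LIFR rose in WT. It lies on chromosome 5 from 38474963 to 38608354 (minus strand; ENSG00000113594). Its level was 35.2 and 31.7 CPM for Control, 49.1 and 49.9 CPM for WT, and 37.1 and 37.7 CPM for IDRmut. Both WT libraries lay above all others, and both IDRmut libraries lay just above Control. The log2 fold change was 0.57 ± 0.06 in WT against Control (adjusted p = 1.0e-06) and 0.41 ± 0.06 in WT against IDRmut (adjusted p = 5.0e-05). In IDRmut against Control it was 0.16 ± 0.06 (adjusted p = 0.068). That last comparison passed the threshold under upper-quartile scaling (adjusted p = 0.029), with correction for GC content and length (adjusted p = 0.0081) and without Control replicate 1 (adjusted p = 0.044). LIFR-AS1, an antisense gene over 5.3% of the LIFR exon bases, had 13 to 36 counts per library.

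OSMR moved in opposite directions in the comparisons of WT and IDRmut with Control. It lies on the same chromosome from 38845858 to 38945596 (plus strand; ENSG00000145623). Its level was 164 and 163 CPM for Control, 147 and 151 CPM for WT, and 187 and 190 CPM for IDRmut. The 3 groups did not overlap. OSMR rose by 0.21 ± 0.04 on the log2 scale in IDRmut against Control (adjusted p = 4.8e-04), and its difference in WT against IDRmut was -0.34 ± 0.04 (adjusted p = 3.6e-06). Its difference in WT against Control was -0.13 ± 0.04 (adjusted p = 0.0136). That call was lost under upper-quartile scaling (adjusted p = 0.063), with DESeq2 (adjusted p = 0.054) and without any 1 of the 4 libraries compared (adjusted p of 0.054 to 0.15).

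IL6ST, the chain that both of these receptors share, was not called in any comparison. It lies on chromosome 5 from 55935095 to 55994993 (minus strand; ENSG00000134352). Its level was 190 and 174 CPM for Control, 193 and 189 CPM for WT, and 176 and 181 CPM for IDRmut. The Control libraries spanned both IDRmut libraries, and only the comparison of WT with IDRmut did not overlap. The log2 fold change was 0.07 ± 0.04 in WT against Control (adjusted p = 0.23), -0.03 ± 0.04 in IDRmut against Control (adjusted p = 0.69) and 0.10 ± 0.04 in WT against IDRmut (adjusted p = 0.11). With correction for GC content and length, WT passed the threshold against Control (adjusted p = 0.026) and against IDRmut (adjusted p = 0.034), and without IDRmut replicate 2 the latter did so too (adjusted p = 0.042).

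The levels of the chains that pair with gp130 were also set against each other in each library. The ratio of OSMR to LIFR per kb was 7.69 and 8.50 for Control, 4.95 and 5.01 for WT, and 8.34 and 8.36 for IDRmut. Both WT libraries lay below the other 4, which overlapped. The ratio of LIFR to IL6ST was 0.145 and 0.143 for Control, 0.199 and 0.207 for WT, and 0.165 and 0.163 for IDRmut. The ratio of OSMR to IL6ST was 1.12 and 1.21 for Control, 0.987 and 1.03 for WT, and 1.38 and 1.36 for IDRmut. These ratios are given as descriptions and were not tested.

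**Figure D4:**
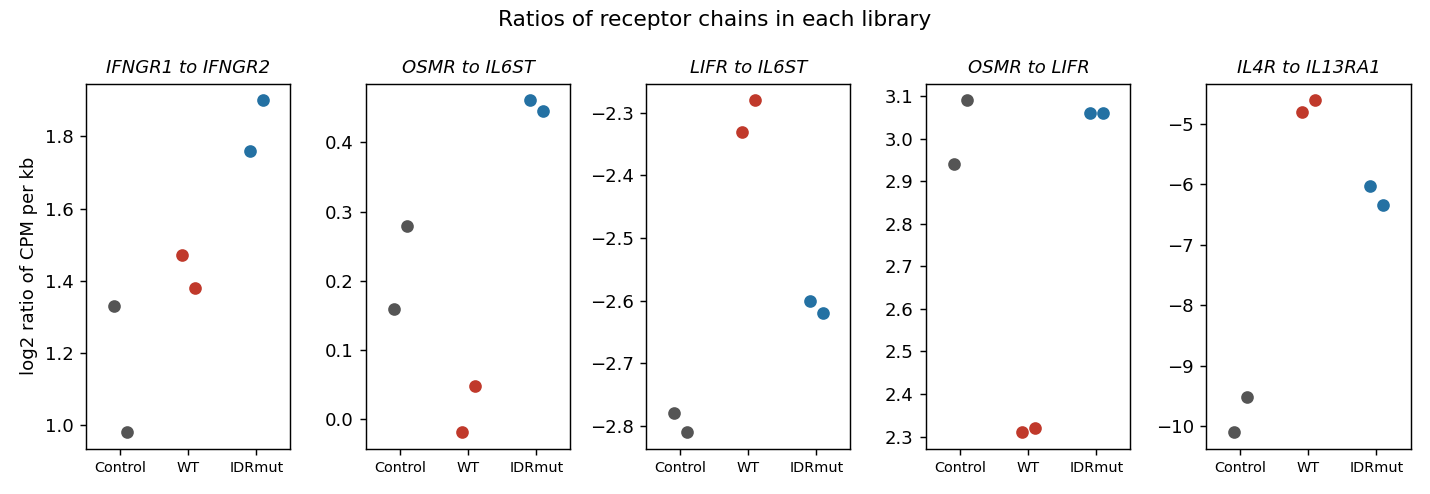
Ratio of the levels per kb of paired receptor chains in each library, on the log2 scale, by group. OSMR to LIFR is lowest in WT, from 4.95 to 5.01 as a linear ratio, and IFNGR1 to IFNGR2 is highest in IDRmut, from 3.39 to 3.74.

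Of the ligands of the gp130 receptors, LIF rose in WT, as LIFR did. In the ligand list 4 of 6 tested genes rose in WT and 2 in IDRmut, and the latter count was 0 with DESeq2 or without Control replicate 2. These are 66.7% and 33.3% of the list, beside 35.0% and 31.6% of all genes, so the share in IDRmut was near that of all genes. The list's medians were 0.45 and 0.07. Between WT and IDRmut 4 were higher and 1 lower in the former, which is 83.3% of the list beside 26.5% of all genes. LIF was at 45.2 and 45.1 CPM for Control, 65.2 and 62.9 CPM for WT, and 49.6 and 44.8 CPM for IDRmut. Its log2 fold change was 0.50 ± 0.06 in WT against Control (adjusted p = 2.0e-06), 0.06 ± 0.06 in IDRmut against Control (adjusted p = 0.47) and 0.44 ± 0.05 in WT against IDRmut (adjusted p = 1.3e-05). IL11, a ligand of gp130 through IL11RA, rose by 0.71 ± 0.13 in WT against Control (adjusted p = 3.3e-04) and stood at 0.00 ± 0.15 in IDRmut (adjusted p = 0.99). IL6 went the other way. It rose by 1.17 ± 0.34 in IDRmut against Control (adjusted p = 0.013) and was at 0.22 ± 0.37 in WT (adjusted p = 0.69). In WT against IDRmut IL6 was at -0.95 ± 0.30 (adjusted p = 0.027). EBI3, the cytokine subunit shared by IL-27 and IL-35, had 4 and 2 counts for Control, 30 and 39 for WT, and 11 and 16 for IDRmut. It passed the filter on low counts only through WT and IDRmut. OSM, the ligand of OSMR, had 1 count in 1 Control library and none in the other libraries. IL6R, the IL-6 binding chain, rose by 0.65 ± 0.20 in IDRmut against Control (adjusted p = 0.017) and was at 0.44 ± 0.19 in WT (adjusted p = 0.085). The rise of IL6R was lost without Control replicate 1 (adjusted p = 0.13), without IDRmut replicate 1 (adjusted p = 0.070) and with DESeq2 (adjusted p = 0.15). IL11RA had 7 to 23 counts per library and was not called.

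PRLR rose in IDRmut and not detectably in WT. It lies on chromosome 5 from 35048756 to 35230589 (minus strand; ENSG00000113494). Its level was 24.1 and 22.5 CPM for Control, 22 and 22.9 CPM for WT, and 29.4 and 28.2 CPM for IDRmut. Control and WT overlapped, and both IDRmut libraries lay above the other 4. The log2 fold change was 0.30 ± 0.07 in IDRmut against Control (adjusted p = 0.0033) and -0.35 ± 0.07 in WT against IDRmut (adjusted p = 8.0e-04). In WT against Control it was -0.05 ± 0.07 (adjusted p = 0.62). Without Control replicate 2 the call in IDRmut was lost (adjusted p = 0.056). Its ligand gene PRL had no count in any library. STAT5A, one of the proteins PRLR activates, rose by 0.41 ± 0.13 in WT against Control (adjusted p = 0.022) and was at 0.20 ± 0.14 in IDRmut (adjusted p = 0.31). The rise of STAT5A was lost without Control replicate 2 (adjusted p = 0.23), without WT replicate 1 (adjusted p = 0.099) and with DESeq2 (adjusted p = 0.17). STAT5B was at 0.08 ± 0.06 in WT (adjusted p = 0.32) and 0.15 ± 0.06 in IDRmut (adjusted p = 0.058), and the latter passed the threshold under upper-quartile scaling (adjusted p = 0.024), with GC and length correction (adjusted p = 0.042) and without IDRmut replicate 1 (adjusted p = 0.019).

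Of the chains of the interferon-gamma receptor, IFNGR1 rose and IFNGR2 fell in IDRmut. IFNGR1, the ligand-binding chain, lies on chromosome 6 from 137197484 to 137219449 (minus strand; ENSG00000027697). Its level was 42.1 and 40.8 CPM for Control, 47.0 and 46.7 CPM for WT, and 50.6 and 49.6 CPM for IDRmut, without overlap between groups. It rose by 0.27 ± 0.05 in IDRmut against Control (adjusted p = 8.9e-04) and by 0.18 ± 0.05 in WT against Control (adjusted p = 0.0156), and was at -0.10 ± 0.05 in WT against IDRmut (adjusted p = 0.18). The call in WT was lost with DESeq2 (adjusted p = 0.11) and without any 1 of the 4 libraries compared (adjusted p of 0.056 to 0.13).

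IFNGR2, the signalling chain, lies on chromosome 21 from 33402896 to 33479348 (plus strand; ENSG00000159128). Its level was 15.1 and 18.7 CPM for Control, 15.3 and 16.2 CPM for WT, and 13.5 and 12 CPM for IDRmut. The Control libraries spanned both WT libraries, and IDRmut lay below the other 4. The log2 fold change was -0.41 ± 0.11 in IDRmut against Control (adjusted p = 0.0068), 0.32 ± 0.10 in WT against IDRmut (adjusted p = 0.028) and -0.09 ± 0.10 in WT against Control (adjusted p = 0.51). The fall in IDRmut rested on Control replicate 2 (adjusted p = 0.15 without it). The difference of WT from IDRmut was lost without WT replicate 2 (adjusted p = 0.19), without IDRmut replicate 2 (adjusted p = 0.15) and with DESeq2 (adjusted p = 0.12). TMEM50B, on the opposite strand, overlaps 12.8% of the IFNGR2 exon bases and had 470 to 792 counts per library. Against Control, TMEM50B was at -0.38 ± 0.09 in WT (adjusted p = 0.0024) and -0.20 ± 0.09 in IDRmut (adjusted p = 0.085). Its part in the IFNGR2 counts was not tested. Per kb, the ratio of IFNGR1 to IFNGR2 was 2.52 and 1.97 for Control, 2.77 and 2.61 for WT, and 3.39 and 3.74 for IDRmut. IFNG, the ligand, had no count in any library.

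IFNAR1 was not called in any comparison. It lies on chromosome 21 from 33324477 to 33359862 (plus strand; ENSG00000142166). Its level was 69.0 and 71.0 CPM for Control, 68.5 and 70.5 CPM for WT, and 70.1 and 76.1 CPM for IDRmut, and all groups overlapped. Its log2 fold change was -0.01 ± 0.05 in WT against Control (adjusted p = 0.93), 0.06 ± 0.05 in IDRmut against Control (adjusted p = 0.38) and -0.07 ± 0.05 in WT against IDRmut (adjusted p = 0.32). Without IDRmut replicate 1 the last of these passed the threshold (adjusted p = 0.043).

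IFNAR2 and IL10RB were measured with few counts and are uncertain for a further reason. They lie next to each other on chromosome 21, IFNAR2 (ENSG00000159110) from 33229901 to 33265675 and IL10RB (ENSG00000243646) from 33266358 to 33310187, both on the plus strand. The read-through gene IFNAR2-IL10RB covers 44.2% of the IFNAR2 exon bases and 38.1% of those of IL10RB, and the antisense gene IL10RB-DT covers 39.1% of those of IFNAR2. The read-through gene itself had 1 to 4 counts per library. The sources used here do not say how reads of shared bases were counted. If they were left out, the counts of IFNAR2 and IL10RB are understated. IFNAR2 had 20 and 14 counts for Control, 13 and 27 for WT, and 10 and 8 for IDRmut, which is 1.01 and 0.753 CPM, 0.637 and 0.790 CPM, and 0.491 and 0.364 CPM. Both IDRmut libraries lay below the other 4. The log2 fold change was -1.05 ± 0.39 in IDRmut against Control (adjusted p = 0.051), -0.28 ± 0.33 in WT against Control (adjusted p = 0.56) and 0.77 ± 0.38 in WT against IDRmut (adjusted p = 0.15). With correction for GC content and length, the difference of IDRmut from Control passed the threshold (adjusted p = 0.037).

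IL10RB had 10 and 9 counts for Control, 15 and 20 for WT, and 15 and 14 for IDRmut. Its log2 fold change was 0.37 ± 0.38 in WT against Control (adjusted p = 0.51), 0.46 ± 0.39 in IDRmut against Control (adjusted p = 0.43) and -0.09 ± 0.34 in WT against IDRmut (adjusted p = 0.88). A change was not detectable at this depth. IFNLR1, which pairs with IL10RB for interferon-lambda, had 17 and 16 counts for Control, 34 and 73 for WT, and 30 and 18 for IDRmut. IFNLR1 rose by 1.17 ± 0.29 in WT against Control (adjusted p = 0.0050) and by 0.78 ± 0.27 in WT against IDRmut (adjusted p = 0.042), and was at 0.40 ± 0.34 in IDRmut against Control (adjusted p = 0.42). The rise against Control was lost without WT replicate 2 (adjusted p = 0.082) and with DESeq2 (adjusted p = 0.066). The difference from IDRmut was lost without any 1 of 4 libraries, both of Control, WT replicate 2 and IDRmut replicate 2 (adjusted p of 0.063 to 0.36), and when only these groups were fitted (adjusted p = 0.065). Other chains of this family were scarce: IL22RA1 had 1 to 8 counts per library and IL20RA 0 to 3.

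Targets of type I interferon rose in both groups. Of 29 tested genes of that list, 27 rose in WT and 27 in IDRmut against Control, 24 were higher in WT than in IDRmut, and none fell. The share called was 93.1% in both groups against Control, beside 35.0% and 31.6% of all genes. In WT against IDRmut it was 82.8%, beside 26.5% of all genes. Their median log2 fold change was 2.65 in WT and 2.14 in IDRmut. IFIT1, which binds viral RNA, went from 2.79 and 2.80 CPM (Control) to 61.8 and 62.4 CPM (WT) and 28.4 and 30.2 CPM (IDRmut). MX1, an antiviral GTPase, rose by 5.75 ± 0.13 in WT (adjusted p = 4.0e-15) and by 4.89 ± 0.15 in IDRmut (adjusted p = 2.9e-13). IFNB1, a ligand of IFNAR1 and IFNAR2, had 0 and 0 counts for Control, 5 and 5 for WT, and 1 and 2 for IDRmut. Neither IFNAR1 nor IFNAR2 was called. For IFNAR2, with 8 to 27 counts per library, the lack of a call does not show an unchanged level. Its log2 fold change was -1.05 ± 0.39 in IDRmut against Control (adjusted p = 0.051), and both IDRmut libraries lay below all Control and WT libraries.

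Genes listed as targets of interferon-gamma rose in both groups. Which interferon, if any, acted on them was not tested. Of 18 tested genes, 17 rose in WT and 14 in IDRmut, and 12 were higher in WT than in IDRmut. The shares called against Control were 94.4% and 77.8%, beside 35.0% and 31.6% of all genes. In WT against IDRmut the share was 66.7%, beside 26.5% of all genes. Their median log2 fold change was 1.13 in WT. In IDRmut the median was 0.75 from the fitted values. It was 0.61 with genes that had no Control count at their lower bound, leaving out a gene with too few IDRmut counts for a bound. The guanylate-binding protein gene GBP1 rose by 2.85 ± 0.11 in WT (adjusted p = 4.9e-12) and 1.955 ± 0.130 in IDRmut (adjusted p = 5.1e-09). WARS1, a tryptophanyl-tRNA synthetase, rose by 1.18 ± 0.05 in WT (adjusted p = 5.0e-12) and 0.53 ± 0.05 in IDRmut (adjusted p = 3.5e-07). GBP5, of the family of GBP1, rose by 4.52 ± 0.20 in WT and 2.82 ± 0.26 in IDRmut. With DESeq2, 6 of these genes in place of 12 were called between WT and IDRmut. IRF9, a DNA-binding subunit of the factor that acts in the type I response, rose by 1.56 ± 0.18 in WT (adjusted p = 2.4e-06) and 1.39 ± 0.19 in IDRmut (adjusted p = 2.0e-05). An unnamed gene (ENSG00000259529) covers 48.4% of the IRF9 exon bases on the same strand and had 25 to 45 counts per library.

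Targets of gp130 and STAT3 moved both ways. Of 15 tested genes, which include OSMR and IL4R themselves, 5 rose and 6 fell in WT, 8 rose and 5 fell in IDRmut, and between WT and IDRmut 2 were higher and 6 lower in the former. The shares called were 73.3% in WT and 86.7% in IDRmut, beside 35.0% and 31.6% of all genes, and the median was 0.04 and 0.11. In WT against IDRmut the share was 53.3%, beside 26.5% of all genes. BCL3, a nuclear partner of NF-kB, was at -1.01 ± 0.06 in WT (adjusted p = 3.1e-10) and -0.21 ± 0.05 in IDRmut (adjusted p = 0.0057; 0.060 with DESeq2). VEGFA, an angiogenic growth factor, was at -0.28 ± 0.05 in WT and 0.38 ± 0.05 in IDRmut. STAT3, the main transcription factor of gp130, rose by 0.38 ± 0.04 in IDRmut (adjusted p = 3.2e-07) and was at -0.05 ± 0.04 in WT (adjusted p = 0.29; 0.029 with GC and length correction). Of 14 listed targets of IL-4, IL-13 and STAT6, 6 passed the filter on low counts. Of these 6, 4 rose in WT and 1 in IDRmut. In WT 2 genes were called with DESeq2 or without Control replicate 1 or WT replicate 2, and in IDRmut the count ran from 0 with DESeq2 to 3 under upper-quartile scaling. The shares called were 66.7% in WT, beside 35.0% of all genes, and 16.7% in IDRmut, below the 31.6% of all genes. The median was 1.28 and 1.00. Between WT and IDRmut the list went both ways, with 2 genes called higher and 1 lower in WT. This is 50% of the list, beside 26.5% of all genes. TGM2, the tissue transglutaminase, rose by 1.26 ± 0.11 in WT (adjusted p = 1.2e-07) and was at 0.23 ± 0.13 in IDRmut (adjusted p = 0.20; 0.0087 without IDRmut replicate 2). CCL26, a chemokine of eosinophils, had 2 and 0 counts for Control, 16 and 27 for WT, and 5 and 7 for IDRmut. It passed the filter only through WT, where it was highest, and is among the genes counted as rising there.

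Among JAK and STAT genes with IRF9, 4 of 10 tested rose and 1 fell in WT, and likewise 4 rose and 1 fell in IDRmut, where 9 were called with GC and length correction. In WT 3 were called with DESeq2 or without WT replicate 1. The share called was 50% in both, beside 35.0% and 31.6% of all genes, and the median was 0.05 in WT and 0.24 in IDRmut. Of 20 negative regulators tested, 6 rose and 2 fell in WT, and 2 rose and 3 fell in IDRmut; the latter 5 calls became 3 with DESeq2 or without Control replicate 1 and 9 with GC and length correction. The shares called, 40% in WT and 25% in IDRmut, lay near the 35.0% and 31.6% of all genes. Their medians were 0.03 and 0.03. SOCS2, an inhibitor of receptors that use STAT5, PRLR among them, rose by 2.41 ± 0.16 in WT (adjusted p = 4.0e-09) and 1.55 ± 0.19 in IDRmut (adjusted p = 7.1e-06). SOCS5 rose by 0.78 ± 0.04 in IDRmut (adjusted p = 7.0e-10) and 0.23 ± 0.04 in WT (adjusted p = 5.7e-04). PTPN1, a phosphatase that acts on JAK kinases, was at -0.35 ± 0.04 in WT (adjusted p = 1.3e-06). In IDRmut PTPN1 was at -0.19 ± 0.04 (adjusted p = 0.0010). Of 17 other receptor chains tested, 7 rose and 2 fell in WT, and 9 rose and 2 fell in IDRmut. In IDRmut 7 in all were called without Control replicate 1 or 2 and 6 with DESeq2. The shares called were 52.9% and 64.7%, beside 35.0% and 31.6% of all genes, and the median was 0.45 in WT and 0.61 in IDRmut. Between WT and IDRmut, 5 of these chains were higher and 3 lower in WT, as were 1 and 2 of the JAK and STAT genes and 4 and 2 of the negative regulators. The shares called were 47.1%, 30% and 30%, beside 26.5% of all genes, so those of the latter lists were near the share of all genes. IL7R, on the chromosome 5 arm that carries PRLR, LIFR and OSMR, went from 12.4 and 11.6 CPM (Control) to 41.6 and 41.2 CPM (WT) and 28.6 and 29.2 CPM (IDRmut). IL20RB, a chain of the IL-20 receptors, rose by 1.08 ± 0.14 in IDRmut (adjusted p = 1.6e-05) and was at -0.25 ± 0.16 in WT (adjusted p = 0.24). CSF2RA had no count in Control, 41 and 82 counts in WT, and 38 and 38 in IDRmut, and passed the filter only through WT and IDRmut. Against a floor of 3 counts over both Control libraries it was at least 28.8-fold higher in WT and at least 22.9-fold higher in IDRmut.

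**Figure D5:**
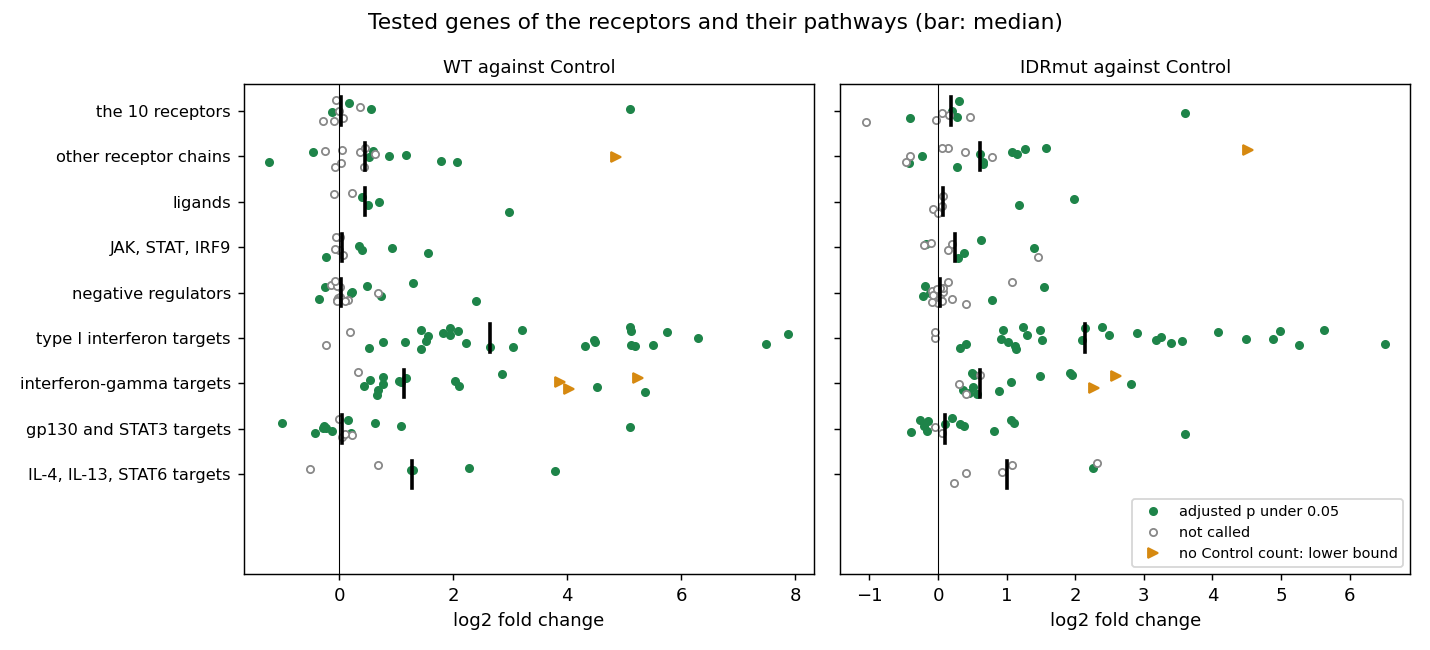
Log2 fold changes of the receptors and of the tested genes of 8 pathway lists in WT and IDRmut against Control, filled where called, with a bar at the median and triangles at the lower bound of genes without a Control count. The receptors centre near 0 (median 0.03 in WT), while type I interferon targets centre at 2.65 in WT and 2.14 in IDRmut. A gene of the interferon-gamma list with too few IDRmut counts for a bound is left out in IDRmut.

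The genes most like a receptor in pattern were sought for the 3 receptors with the widest range, by the root mean square distance of centred log2 CPM over the 6 libraries among 10908 genes. Nearest to IL4R were CSMD2 at a distance of 0.191, IFIT2 at 0.253 and IFIT3 at 0.272. CSMD2 had a mean of 0.470 CPM (Control), 13.3 CPM (WT) and 4.93 CPM (IDRmut). IFIT2 and IFIT3 are members of the type I interferon list. Nearest to LIFR were FBXO27 at 0.0339, HDAC9 at 0.0340 and ZNF365 at 0.0343. Nearest to IFNAR2 were ENPP1 at 0.153, SLC16A9 at 0.157 and TMEM200A at 0.163. The 6 libraries fall into 3 groups, so a small distance says mainly that group means are alike.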

How the data were processed

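Poly-A RNA of 6 libraries was sequenced, 2 per group. The deposited table holds raw counts per gene, not normalized. Reads were handled with featureCounts 2.0.1, HISAT2 2.2.1 and SAMtools 1.14 on GRCh38, per the submitters' processing notes; the sources used here do not give the annotation, strand setting or treatment of multiply mapped reads. Of 61487 IDs, 61369 matched current names, 105 only GENCODE 29 names, and 13 none. Genes were kept by filterByExpr (minimum count 10, total 15), which left 16591. A gene with few Control counts could pass only through WT or IDRmut. Its rise, and the list counts and shares that include it, are not independent of this filter. Libraries were scaled with TMM, and all 6 entered 1 fit of group means in edgeR 4.0.16 (R 4.3.3), tested by quasi-likelihood, with Benjamini-Hochberg adjustment over all genes tested and calls at 0.05. The fit had 3 residual and 13.5 prior degrees of freedom and a biological coefficient of variation of 0.0294. SE is the log2 fold change divided by the root of F. The procedure was tested on simulated counts. The planted changes were larger than those of every called receptor but IL4R, so the test does not cover changes that small. Exon lengths and coordinates came from GENCODE 29, which may not be the authors' annotation. Intervals and floors rest on summed counts, so they cover counting error only and not the spread between libraries. PCR reads carry no molecular identifiers, so copies of a molecule cannot be told from separate molecules.

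The receptors and gene lists were chosen with earlier results of these data known. Named genes are the receptors, TNK2, STAT5A, STAT5B, up to 3 genes per list by smallest adjusted p, fixed second chains, and for each of 3 receptors the 3 nearest genes of at least 5 CPM. Others (LIFR-AS1, TMEM50B, the ligand genes OSM, PRL, IFNG, IFNB1, IL4, IL6 and IL13, and STAT6, IL13RA2 and PTPRC) were added by hand. Alternatives were DESeq2 1.42.0, other scalings, no filter, a replicate block, only the groups compared, each library left out, and, added after the data were seen, GC and length correction. A gene that meets the naming rule is not reported here.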

Additional observations from a re-analysis of the deposited data

How the results depend on the processing

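Of 388 receptor values under 13 alternatives, 353 kept their direction and their side of the threshold, 16 lost a call, 8 gained one and 11 changed sign, each of these from a value that was not called. IL4R in all 3 comparisons, LIFR in WT against Control and against IDRmut, OSMR and IFNGR1 in IDRmut against Control, and OSMR and PRLR in WT against IDRmut kept their calls under each of the 13. With DESeq2, 2 receptors in place of 4 were called in WT against Control, and 3649, 3290 and 2534 genes overall in WT against Control, IDRmut against Control and WT against IDRmut, beside 5807, 5237 and 4396. With a library left out, 2 to 4, 3 to 6 and 4 to 6 receptors were called, and 3974 to 7028, 3451 to 5522 and 2590 to 4761 genes; a lone library was then assumed to vary like the other groups. The count of 3 receptors in IDRmut came without Control replicate 2, and the lowest gene counts without Control replicate 1 (3451) and without WT replicate 2 (2590). Signs changed for IFNAR1 in WT against Control (0.0246 under upper-quartile scaling, 0.0009 without a filter, 0.0115 with GC and length correction, -0.0361 to 0.0109 with a library left out). They changed for IL6ST in IDRmut against Control (0.0039 under upper-quartile scaling, 0.0020 with GC and length correction, -0.0928 to 0.0363 with a library left out) and for IL11 (-0.0410 with GC and length correction, -0.0250 to 0.0250 with a library left out). With a library left out they also changed for IFNGR2 in WT against Control (-0.2413 to 0.0634), for LIF (-0.0132 to 0.1332) and IFNLR1 (-0.0746 to 0.7683) in IDRmut against Control, and for IL10RB (-0.2238 to 0.0965) and IL13RA1 (-0.0341 to 0.0165) in WT against IDRmut. The cause was not tested. Replicate numbers did not pair the libraries: deviations correlated at -0.0235, -0.0187 and -0.0265 between groups. With the replicate number as a block, 4, 5 and 5 receptors were called, and 5440, 4836 and 3966 genes. Among the genes followed through the alternatives, the only call it changed was that of IFNLR1 in WT against IDRmut (adjusted p = 0.057). Genes added by hand and cell type markers were not followed singly. Depth limits IFNAR2, IL10RB and the Control level of IL4R, which rest on 8 to 27, 9 to 20 and 2 to 3 counts per library.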
